A study of Mus musculus with 20 samples.

Results

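The ATP-binding cassette (ABC) transporter genes were taken as all genes whose symbol is Abca to Abcg followed by a number, with pseudogenes left out. The rule gave 50 genes, present both among the 55487 rows of the prefrontal cortex table and among the 57180 rows of the hippocampus table. They were 16 genes of subfamily A, 10 of B, 10 of C, 4 of D, 1 of E, 3 of F and 6 of G. Their levels come from poly(A) RNA libraries of wild-type mice of the inbred strain C57/BL6, 2 to 6 months old. For prefrontal cortex, 4 males were injected in the peritoneum with 5 mg/kg lipopolysaccharide (LPS), the endotoxin of Gram-negative bacteria and a standard trigger of systemic inflammation, and another 4 with 0.9% saline, and tissue was taken 24 hours later. For hippocampus, 6 mice were given 0.2 mg/kg of nicotine, which activates the ion channel class of acetylcholine receptors, and another 6 were given saline, also 24 hours before tissue was taken, and the sex of these animals is not given separately. Libraries held 39871000 to 42924749 gene counts with LPS and 36371084 to 46106526 with saline in prefrontal cortex, and 53145736 to 62982229 with nicotine and 51969343 to 68196280 with saline in hippocampus. Each tissue was its own batch and its own table, so tissue and batch cannot be told apart and no test was made between tissues.

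In prefrontal cortex the labels of 4 of the 8 libraries contradict themselves. By the column name quoted for each record, libraries 2L, 4L, 5L and 7L received LPS and libraries 1L, 3L, 6L and 8L received saline, while the titles of 2L, 4L, 6L and 8L give the other treatment. The column names were followed here. As a check, Lcn2, a gene strongly induced by systemic inflammation, ranged from 254 to 366 CPM (the gene's counts scaled to a common library size with TMM factors) in the 4 libraries called LPS by column name and from 0.676 to 13.5 CPM in the 4 called saline. Values for LPS are given below in the order 2L, 4L, 5L, 7L and values for saline in the order 1L, 3L, 6L, 8L.

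ABC transporters bind and hydrolyse ATP in a pair of cytosolic domains and use it to move lipids, drugs, peptides or metal-containing cofactors across membranes. In brain, P-glycoprotein (Abcb1a and Abcb1b) and the breast cancer resistance protein (Abcg2) sit in the luminal membrane of capillary endothelium and pump drugs back into blood. Abca1 and Abcg1 pass cholesterol from glia to lipoprotein particles, most of the D subfamily carries fatty acids into peroxisomes, Abcc8 and Abcc9 regulate potassium channels, and the E and F subfamilies have no membrane part and act on ribosomes.

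Neighbouring members moved in different directions, so the sequence before the start of 5 members is shown for comparison. They were picked by position or direction of change and are not the 5 with the smallest p. The windows are 200 bases, from 250 to 51 bases before the RefSeq start, on the strand of the gene (RefSeq, build GRCm38.p6). The chromosome 11 neighbours Abca5, which rose with LPS, and Abca8a and Abca9, which fell, stand beside Abca1, the member with the largest rise, and Abcb1b, which rose while its neighbour Abcb1a fell. Capitals mark matches, on either strand, to the GC box GGGCGG, the CCAAT box CCAAT and the E-box CACGTG. The nuclear receptor half-site AGGTCA and the AP-1 site TGANTCA were also searched and had no exact match in these 5 windows, and no matches overlapped.
Abca1, chr4:53159946-53160145, minus strand: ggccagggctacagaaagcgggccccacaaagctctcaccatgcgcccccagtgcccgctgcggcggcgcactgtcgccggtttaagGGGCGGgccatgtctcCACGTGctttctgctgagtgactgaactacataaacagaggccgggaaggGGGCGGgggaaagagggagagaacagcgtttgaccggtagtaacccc
Abca5, chr11:110337767-110337966, minus strand: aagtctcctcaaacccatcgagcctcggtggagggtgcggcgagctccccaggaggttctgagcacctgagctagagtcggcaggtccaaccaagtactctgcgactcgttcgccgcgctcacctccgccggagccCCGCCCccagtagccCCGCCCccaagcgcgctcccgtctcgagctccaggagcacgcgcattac
Abca8a, chr11:110095988-110096187, minus strand: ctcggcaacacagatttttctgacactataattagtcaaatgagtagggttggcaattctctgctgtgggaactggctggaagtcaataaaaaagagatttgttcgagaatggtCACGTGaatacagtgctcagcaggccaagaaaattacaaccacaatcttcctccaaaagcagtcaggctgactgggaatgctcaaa
Abca9, chr11:110168204-110168403, minus strand: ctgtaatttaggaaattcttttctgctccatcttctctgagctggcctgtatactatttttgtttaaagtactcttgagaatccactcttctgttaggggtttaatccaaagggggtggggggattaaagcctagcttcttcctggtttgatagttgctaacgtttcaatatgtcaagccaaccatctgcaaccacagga
Abcb1b, chr5:8797897-8798096, plus strand: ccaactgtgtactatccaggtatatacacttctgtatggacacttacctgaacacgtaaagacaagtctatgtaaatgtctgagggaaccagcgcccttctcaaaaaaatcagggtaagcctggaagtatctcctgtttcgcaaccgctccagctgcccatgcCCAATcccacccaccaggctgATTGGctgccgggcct
The windows of Abca1 and Abca5 held 63.5% and 67.5% G and C, with 14 and 20 CpG dinucleotides, and each held 2 GC boxes. Those of Abca8a and Abca9 held 43% and 41.5% G and C, with 3 and 1 CpG, and Abcb1b had 50.5% with 5 CpG and 2 CCAAT boxes. Over all 32851 RefSeq windows of this length the median was 51.5% G and C and 4 CpG. A GC box was present in 24.6% of them, a CCAAT box in 28.4%, an E-box in 4.34%, AGGTCA in 11.4% and TGANTCA in 5.57%. An E-box lay in the window of Abca1, which rose, and in that of Abca8a, which fell. These 5 windows were picked, and those of other members were not compared. Whether base composition or matches go with the direction of change was not tested. A match is a string of letters and not a measured binding site. Only exact letters were searched, so a site that departs from them in any letter is not marked. The RefSeq start of Abcb1a lies 92986 bases from the nearest GENCODE start of that gene, so its window is not shown.

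Per length, the most abundant members in prefrontal cortex were those that act on ribosomes or on the lipids of neurons and glia. The drug exporters Abcb1a and Abcg2 ranked lower. In saline prefrontal cortex Abcf2 stood at 39.1 ± 1.59 CPM per kb of exon (SD, n = 4) and Abca2, a lysosomal lipid transporter prominent in oligodendrocytes, at 35.1 ± 2.70 CPM per kb. Their ranges of mean and SD overlapped. Abcf1 (23.6 ± 1.24), Abcf3 (19.8 ± 1.04) and the ribosome recycling factor gene Abce1 (14.4 ± 1.09 CPM per kb) came next, each separated from the next by more than their SDs. Abcg4, Abca3, Abcd3 and Abcg1 followed between 10.95 and 11.0 CPM per kb and did not differ beyond their spread. Abcb1a ranked 16 at 4.66 ± 0.245 CPM per kb and Abcg2 ranked 24 at 1.71 ± 0.256 CPM per kb. In saline hippocampus Abcf2 (33.4 ± 2.26 CPM per kb, n = 6) and Abca2 (30.2 ± 3.99) again ranked 1 and 2, and Abcc5, an organic anion exporter, ranked 6 with 13.4 ± 1.37 CPM per kb.

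**Figure D1:**
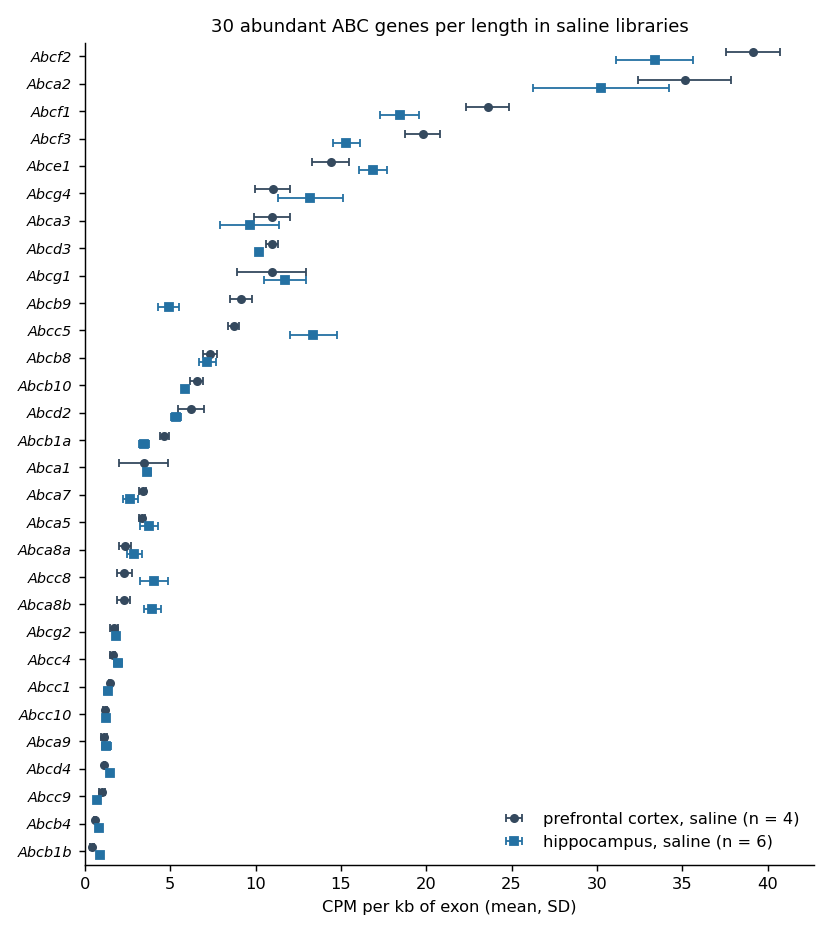
Mean level per length, in CPM per kb of exon, of 30 abundant ABC genes in saline libraries of prefrontal cortex (circles, n = 4) and hippocampus (squares, n = 6), with SD as bars. Abcf2 and Abca2 lie at 30.2 to 39.1 CPM per kb in both tissues. In prefrontal cortex Abcb1a and Abcg2 rank 16 and 24 of the 50 members.

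In prefrontal cortex 39 of the 50 members passed the filter on low counts, and 18 of them changed with LPS. Here and below a gene is said to rise or fall where its Benjamini-Hochberg adjusted p, over all genes tested with edgeR's quasi-likelihood F-test, was under 0.05. Of the 39, 8 rose (20.5%) and 10 fell (25.6%), against 21.5% and 19.7% of all 17760 genes tested, so the share of members called was near that of the whole transcriptome, 41.2%. The groups did not overlap in CPM for 17 of the 39 (43.6%), against 37.1% of all genes tested. The median log2 change was -0.06 for the members and 0.01 for all genes tested. Abcc6 passed the filter through the saline libraries alone. The summed level of all members was 1608 ± 53.3 CPM with LPS and 1545 ± 39.4 CPM with saline (SD, n = 4 each), and the ranges of these sums overlapped. Of the 18 calls, 12 held in each of the 8 fits that left out a library, 17 held with DESeq2, which called 35.5% of all genes it tested, and 18 with limma-voom, which called 41.5%. The number of members that rose was 5 without 3L, 4L or 8L and 4 without 6L. In the 4 libraries whose title and column name agree, 5L and 7L with LPS and 1L and 3L with saline, 10 held. With endothelial markers as a covariate 10 held too. The calls of Abca4, Abca5, Abcb10, Abcc4, Abcc5, Abcc8 and Abcd2 were among those lost in both fits. The first of these fits has fewer libraries in each group. Endothelial markers summed to 383 to 418 CPM with LPS and 288 to 359 CPM with saline, so that covariate and treatment are not independent. Of the 18 calls 0 held when libraries were grouped by title. In bulk tissue, fewer cells of a type and less RNA per cell cannot be told apart.

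**Figure D2:**
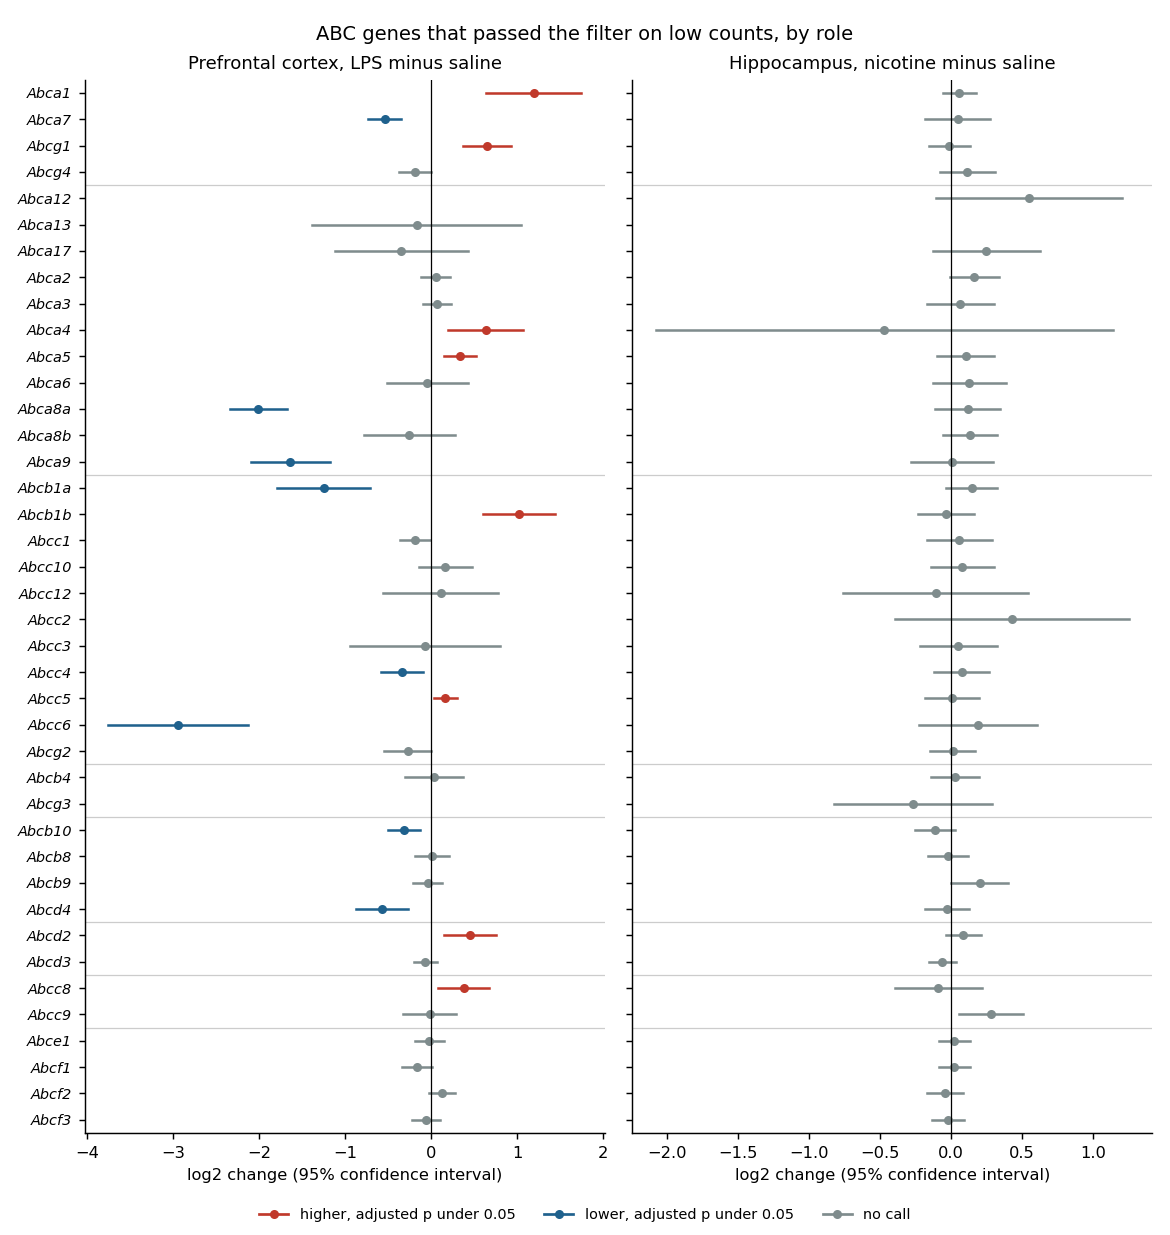
Log2 change (points) with 95% confidence interval (lines) of ABC genes that passed the filter, grouped by role with grey rules between roles, for LPS minus saline in prefrontal cortex (left, n = 4 each) and nicotine minus saline in hippocampus (right, n = 6 each, on its own scale). In prefrontal cortex the values run from -2.94 for Abcc6, which passed the filter through saline libraries alone, to 1.19 for Abca1. In hippocampus no gene is called.

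The P-glycoprotein genes moved in opposite directions with LPS. Abcb1a (chromosome 5, 8660077 to 8748575, mm10), the main P-glycoprotein gene of mouse brain capillaries, had 17.4, 11.8, 6.82 and 6.96 CPM with LPS and 26.8, 24.0, 24.8 and 26.5 CPM with saline. Every LPS library lay below every saline library, and 2L and 4L, the LPS libraries with contradicting titles, lay above 5L and 7L. Abcb1a fell to 10.7 ± 4.98 CPM with LPS, against 25.5 ± 1.34 CPM with saline (SD, n = 4 each). On the log2 scale this is -1.25 (SE 0.25, edgeR adjusted p = 0.00225), and -1.89 in the 4 libraries with agreeing labels. Abcb1b (chromosome 5, 8798147 to 8866315), the neighbouring gene for a closely related P-glycoprotein, had 6.71, 7.64, 6.57 and 5.63 CPM with LPS and 2.72, 3.72, 2.45 and 4.18 CPM with saline. It rose, with no overlap between groups, by 1.02 on the log2 scale (SE 0.19, edgeR adjusted p = 0.00153). Abcb1b made up 27.9 to 49.0% of the summed CPM of the pair with LPS and 8.98 to 13.6% with saline. In hippocampus its share was 19.5 to 30.2% with nicotine and 23.8 to 30.6% with saline. The exons of the pair share 889 stretches of 50 bases, 16.3% of those of Abcb1a and 11.1% of those of Abcb1b, where a read cannot be assigned to either gene by its letters.

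Abcg2, the breast cancer resistance protein gene, did not pass the threshold. It had 12.7, 12.1, 11.0 and 10.4 CPM with LPS and 13.2, 16.9, 11.9 and 13.9 CPM with saline, ranges that overlap through library 6L. Its log2 change was -0.27 (95% confidence interval -0.55 to 0.00, edgeR adjusted p = 0.105), and -0.50 over 1L, 3L, 5L and 7L alone (adjusted p = 0.0399). Endothelial markers as a group were not lower with LPS. Of 13 endothelial genes, 6 rose and 3 fell, where 21.5% and 19.7% of all genes tested did. Their summed level was 383 to 418 CPM with LPS and 288 to 359 CPM with saline. Per 1000 CPM of these markers Abcb1a stood at 17.5 to 41.5 CPM with LPS and 74.0 to 85.4 CPM with saline, and Abcg2 at 26.0 to 31.6 CPM with LPS and 38.6 to 58.5 CPM with saline. With the endothelial markers as a covariate Abcb1a had a log2 change of -2.02 (edgeR adjusted p = 0.000284) and Abcg2 one of -0.38 (adjusted p = 0.128). The markers themselves differed between the groups, so the part of this covariate and that of treatment cannot be fully told apart.

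Among the C subfamily exporters of drugs and organic anions the largest change was in Abcc6, whose human counterpart releases ATP from liver cells and is mutated in pseudoxanthoma elasticum. Abcc6 had 0.192, 0.188, 0.181 and 0.205 CPM with LPS and 1.90, 1.78, 1.61 and 0.689 CPM with saline. Libraries with LPS were all below those with saline, and 8L was the lowest of the saline libraries. The log2 change was -2.94 (SE 0.37, edgeR adjusted p = 0.00014), on 7 to 8 counts in each LPS library and 29 to 76 in each saline library. Abcc6 passed the filter through the saline libraries alone, so it was tested only because of its level there. Abcc4, which exports cyclic nucleotides and organic anions, had 8.22, 7.99, 8.71 and 8.34 CPM with LPS and 10.2, 9.48, 10.7 and 11.7 CPM with saline (log2 change -0.34, SE 0.11, adjusted p = 0.0290). The groups of Abcc4 did not overlap, and its call was lost without 1L, 4L, 6L or 8L (edgeR adjusted p = 0.0518 to 0.0835) and over 1L, 3L, 5L and 7L alone (-0.21, adjusted p = 0.334). Abcc5 was higher in every LPS library, at 101 to 109 CPM with LPS and 88.4 to 96.3 CPM with saline (0.17, SE 0.06, adjusted p = 0.0477), and its call was lost without any 1 of the 8 libraries (adjusted p = 0.0562 to 0.159). Abcc1, the multidrug resistance-associated protein 1 gene, stood at 18.5 to 19.7 CPM with LPS and 21.1 to 22.7 CPM with saline without passing the threshold (-0.19, adjusted p = 0.0885). Abcc3, Abcc10 and Abcc12 did not pass it either, with log2 changes of -0.07, 0.17 and 0.11. Together 2 of the 10 tested drug and anion exporters rose (Abcb1b and Abcc5) and 3 fell (Abcb1a, Abcc4 and Abcc6). Of all genes tested 21.5% rose and 19.7% fell.

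**Figure D3:**
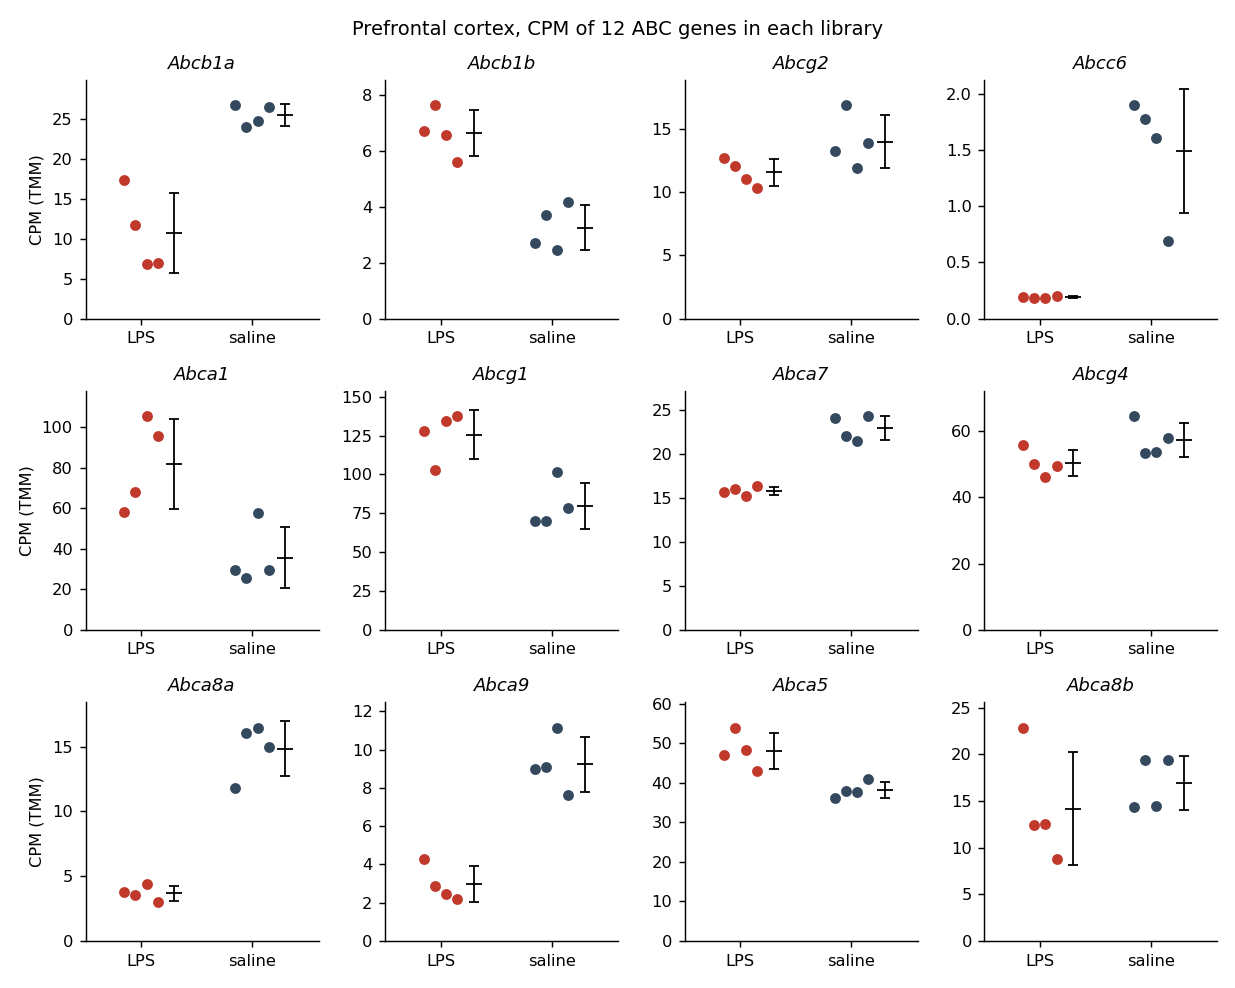
CPM of 12 ABC genes in each prefrontal cortex library, LPS on the left and saline on the right of each panel, with the mean and SD (n = 4 each) as a bar beside the points and each axis starting at 0. Abcb1a, Abcc6, Abca7, Abca8a and Abca9 lie lower in all LPS libraries, Abcb1b, Abca1, Abcg1 and Abca5 lie higher in all of them, and Abcg2, Abcg4 and Abca8b overlap.

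Of the sterol and phospholipid efflux genes Abca1 and Abcg1 rose and Abca7 fell. Abca1 (chromosome 4, 53030787 to 53159895, mm10), which loads cholesterol and phospholipid onto lipid-poor apolipoproteins, had 58.4, 67.9, 105 and 95.6 CPM with LPS and 29.8, 25.5, 57.9 and 29.7 CPM with saline. The groups did not overlap, although saline library 6L stood within 1 CPM of LPS library 2L. The log2 change of Abca1 was 1.19 (SE 0.25, edgeR adjusted p = 0.00327), 1.85 in the 4 libraries with agreeing labels and 1.83 with the endothelial markers as a covariate. Abcg1 (chromosome 17, 31057675 to 31117988), which passes cholesterol on to particles that already carry lipid, had 128, 103, 135 and 137 CPM with LPS and 69.8, 70.2, 101 and 78.3 CPM with saline. Library 6L was again the highest of the saline libraries and lay below all LPS libraries, and the log2 change was 0.65 (SE 0.13, adjusted p = 0.00205). Abca7, a phospholipid transporter gene linked to Alzheimer's disease risk in humans, had 15.7, 16.0, 15.2 and 16.3 CPM with LPS and 24.0, 22.1, 21.5 and 24.2 CPM with saline. It fell by 0.54 on the log2 scale (SE 0.09, adjusted p = 0.000653), with groups well apart. Abcg4, a relative of Abcg1 expressed in neurons and astrocytes, had 55.7, 50.1, 46.3 and 49.6 CPM with LPS and 64.4, 53.3, 53.6 and 57.9 CPM with saline. These ranges overlap, and Abcg4 did not pass the threshold (-0.18, 95% confidence interval -0.37 to 0.00, adjusted p = 0.107), though it did without 2L (-0.24, adjusted p = 0.0333) and with the endothelial covariate (-0.39, adjusted p = 0.00694). Abcg5 and Abcg8, the sterol exporter of liver and intestine, had 3 and 3 counts over the LPS libraries and 3 and 0 over the saline libraries and were not tested.

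The other genes around sterol efflux, a list of 21, held 6 that rose and 7 that fell. Of all genes tested 21.5% rose and 19.7% fell. Apod, a small lipid carrier, rose to 565 ± 50.1 CPM with LPS, against 218 ± 22.5 CPM with saline (log2 change 1.37, edgeR adjusted p = 1.44e-06). Pltp, the phospholipid transfer protein gene, fell to 14.7 ± 1.65 CPM with LPS, against 52.0 ± 15.1 CPM with saline (-1.82), and Lcat, which esterifies cholesterol on lipoproteins, fell to 14.7 ± 2.24 CPM, against 31.8 ± 2.74 CPM with saline (-1.11). The liver X receptor genes Nr1h2 and Nr1h3, whose proteins drive transcription of Abca1 and Abcg1, were themselves lower with LPS (-0.45 and -0.96), and their partner genes Rxra and Rxrb were higher (0.38 and 0.28). Microglia, which express Abca1, were represented by 8 markers, of which 6 fell and 0 rose, with a summed level of 268 to 308 CPM with LPS and 429 to 457 CPM with saline. The part of cell numbers or of liver X receptors in the changes of Abca1, Abcg1 and Abca7 was not tested.

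Of the other A subfamily genes, Abca8a and Abca9 fell and Abca4 and Abca5 rose. Abca8a (chromosome 11, 110025634 to 110095978, mm10) had 3.81, 3.54, 4.39 and 3.02 CPM with LPS and 11.8, 16.1, 16.5 and 15.0 CPM with saline. LPS libraries lay far below saline libraries, at 3.69 ± 0.573 CPM with LPS and 14.8 ± 2.10 CPM with saline (SD, n = 4 each). On the log2 scale this is -2.01 (SE 0.15, edgeR adjusted p = 4.60e-06), and its adjusted p was the smallest of all members. Abca9 (chromosome 11, 110100749 to 110168196), the next gene, had 4.29, 2.88, 2.46 and 2.20 CPM with LPS and 9.00, 9.10, 11.2 and 7.65 CPM with saline (-1.64, SE 0.21, adjusted p = 0.000155). Abca5 (chromosome 11, 110269369 to 110337716), which encodes a lysosomal lipid transporter, had 47.0, 54.0, 48.4 and 43.1 CPM with LPS and 36.1, 37.9, 37.6 and 41.0 CPM with saline. It rose without overlap between groups (0.34, SE 0.09, edgeR adjusted p = 0.00901). Without the libraries with contradicting titles, which leaves fewer in each group, the log2 change was 0.30 and the call was lost (edgeR adjusted p = 0.0733). Abca4, known for flipping retinoid adducts in photoreceptors, had 3.88, 4.95, 3.44 and 3.99 CPM with LPS and 3.51, 2.10, 2.28 and 2.59 CPM with saline. The groups of Abca4 overlapped through 1L and 5L (0.63, SE 0.20, adjusted p = 0.0248), and its call was lost without 3L, 4L, 6L or 8L (adjusted p = 0.0561 to 0.0911). Over 1L, 3L, 5L and 7L alone Abca4 was at 0.39 (edgeR adjusted p = 0.330), and with the endothelial covariate at 0.38 (adjusted p = 0.296).

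Abca8b, Abca8a, Abca9, Abca6 and Abca5 lie side by side in this order on the minus strand of chromosome 11, with 4.77 to 29.8 kb between neighbours. Within this row Abca8a and Abca9 fell, Abca5 rose, and Abca8b (-0.25, adjusted p = 0.427) and Abca6 (-0.04, adjusted p = 0.889) did not pass the threshold. Abca8b, the closest relative of Abca8a, had 22.8, 12.4, 12.5 and 8.80 CPM with LPS and 14.4, 19.4, 14.4 and 19.4 CPM with saline. Library 2L was the highest of all 8 for Abca8b, and without it the log2 change was -0.59 (adjusted p = 0.0106). Abca8b also passed over 1L, 3L, 5L and 7L alone (-0.67, edgeR adjusted p = 0.0339) and with the endothelial covariate (-0.84, adjusted p = 0.0481). Exons of Abca8a and Abca8b share only 1.64% and 1.42% of their 50-base stretches. On chromosome 5, Abcb1a, Abcb1b and Abcb4 form a similar row, in which Abcb4, the phosphatidylcholine transporter of bile, had 6.62, 6.26, 6.05 and 4.45 CPM with LPS and 5.90, 6.19, 5.66 and 5.03 CPM with saline. Abcb4 did not pass the threshold (0.04, 95% confidence interval -0.30 to 0.37).

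**Figure D4:**
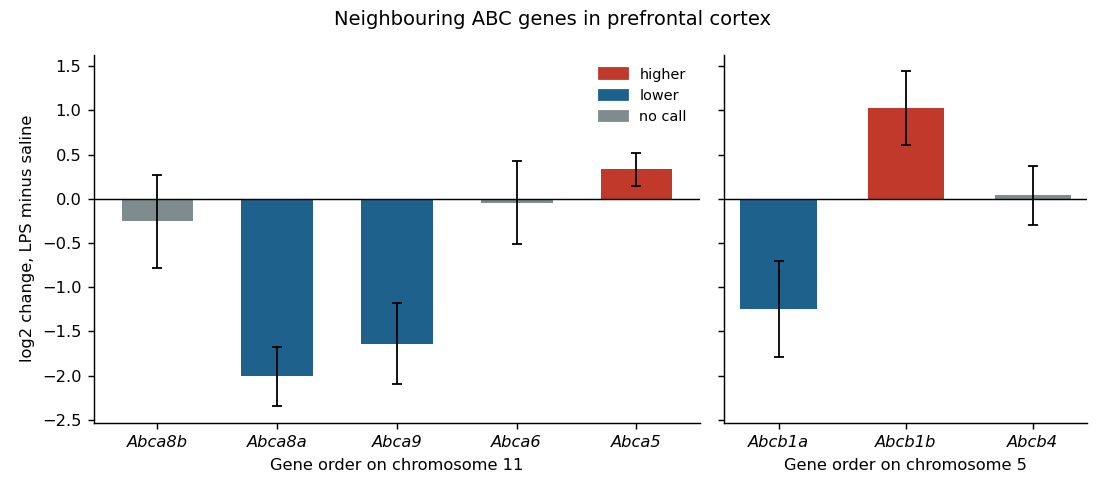
Log2 change with LPS in prefrontal cortex (bars, with 95% confidence intervals as lines) of neighbouring ABC genes in chromosomal order, from Abca8b to Abca5 on chromosome 11 (left) and from Abcb1a to Abcb4 on chromosome 5 (right). Bars run from -2.01 for Abca8a to 0.34 for Abca5 in the left row and from -1.25 for Abcb1a to 1.02 for Abcb1b in the right row.

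Markers of other cells moved beside the fall of Abca8a and Abca9. Of all genes tested 19.7% fell and 21.5% rose. Of 10 oligodendrocyte markers 5 fell and 0 rose, with a summed level of 2625 to 3564 CPM with LPS and 2970 to 3990 CPM with saline. Of 9 tested fibroblast and meningeal markers 5 fell and 1 rose, with 51.8 to 112 CPM with LPS and 51.3 to 137 CPM with saline. Mural cell markers fell in 4 of 10 cases and rose in 1, with 158 to 207 CPM with LPS and 204 to 252 CPM with saline. Per 1000 CPM of oligodendrocyte markers Abca8a stood at 1.15 to 1.32 CPM with LPS and 3.99 to 4.99 CPM with saline and did not overlap. Per 1000 CPM of fibroblast markers Abca9 stood at 25.7 to 75.6 CPM with LPS and 81.1 to 149 CPM with saline. Oligodendrocyte precursor markers fell in 5 of 6 cases and rose in 1, with summed levels of 123 to 139 CPM with LPS and 187 to 234 CPM with saline that did not overlap. The part of these cells in the changes of Abca8a and Abca9 was not tested. The remaining A subfamily genes tested, Abca2, Abca3, Abca13 and Abca17, did not pass the threshold, with log2 changes of 0.05, 0.07, -0.17 and -0.35. Abca2 stood at 277 to 326 CPM with LPS and 260 to 308 CPM with saline.

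Of the transporters in mitochondria and lysosomes, Abcb10 and Abcd4 fell. Abcb10, an inner membrane transporter linked to haem synthesis, had 21.0, 22.6, 24.0 and 23.3 CPM with LPS and 27.8, 26.2, 28.7 and 30.1 CPM with saline (log2 change -0.31, SE 0.09, adjusted p = 0.0133). Abcd4, which exports cobalamin from lysosomes, had 7.22, 6.26, 4.78 and 6.44 CPM with LPS and 9.15, 9.40, 8.74 and 9.28 CPM with saline (-0.57, SE 0.14, adjusted p = 0.00714). In both genes the LPS libraries lay below the saline libraries, and in the 4 libraries with agreeing labels the call of Abcb10 was lost (-0.20, edgeR adjusted p = 0.240). Abcb9, a lysosomal peptide transporter gene, had 54.1, 47.2, 48.5 and 49.3 CPM with LPS and 55.5, 51.1, 51.3 and 46.8 CPM with saline, and Abcb8, another mitochondrial member, had 30.8 to 38.8 CPM with LPS and 33.4 to 37.6 CPM with saline. Neither passed the threshold. Abcb6, a porphyrin transporter gene, was listed with 0 counts in all 20 libraries of both tissues. Of its exon bases 55.2% are shared with Gm29253, a predicted gene on the same strand that was also listed at 0. Whether this overlap led to the 0 counts was not tested, and 0 is not read here as the level of Abcb6.

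Of the peroxisomal fatty acid transporters, Abcd2 rose and Abcd3 did not pass the threshold. Abcd2, which carries very long-chain fatty acids, had 66.9, 45.2, 44.5 and 45.7 CPM with LPS and 39.5, 41.9, 33.0 and 33.1 CPM with saline. Library 2L stood apart from the other LPS libraries, all of which lay above the saline libraries. The log2 change of Abcd2 was 0.46 (SE 0.14, adjusted p = 0.0209), 0.29 without 2L (adjusted p = 0.0251), and the call was lost without 6L or 8L (adjusted p = 0.0632 and 0.0651) and over 1L, 3L, 5L and 7L alone (0.14, adjusted p = 0.355), and with the endothelial covariate Abcd2 was at 0.12 (adjusted p = 0.604). Abcd3, which takes branched fatty acids and bile acid precursors into peroxisomes, had 69.1, 68.5, 67.2 and 71.6 CPM with LPS and 69.5, 73.8, 74.7 and 71.3 CPM with saline and did not pass the threshold (-0.07, 95% confidence interval -0.20 to 0.07). Among 13 genes of peroxisomal import and oxidation 2 rose and 4 fell, where 21.5% and 19.7% of all genes tested did. Acaa1a, the peroxisomal thiolase gene, fell to 24.8 ± 2.74 CPM with LPS, against 38.8 ± 0.591 CPM with saline (-0.65), and the carnitine acetyltransferase gene Crat fell by 0.39 on the log2 scale. Pex14, part of the docking complex for imported proteins, rose (0.45).

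Of the regulatory subunits of ATP-sensitive potassium channels, Abcc8 rose and Abcc9 did not pass the threshold. Abcc8, the sulfonylurea receptor 1 gene, had 26.8, 25.3, 21.7 and 24.0 CPM with LPS and 21.8, 15.7, 15.5 and 22.0 CPM with saline. The groups overlapped through 1L, 5L and 8L (log2 change 0.38, SE 0.14, edgeR adjusted p = 0.0404), and the call was lost without 2L, 3L, 4L, 6L or 7L (adjusted p = 0.0664 to 0.124). For Abcc8 the value was 0.27 over 1L, 3L, 5L and 7L alone (edgeR adjusted p = 0.250) and 0.071 with the endothelial covariate (adjusted p = 0.744). Abcc9, the sulfonylurea receptor 2 gene of vascular mural cells, had 9.40, 8.44, 8.09 and 7.93 CPM with LPS and 8.33, 8.75, 6.78 and 10.3 CPM with saline (-0.01, 95% confidence interval -0.32 to 0.30). The pore genes did not pass the threshold, with Kcnj8 at 5.21 ± 0.397 CPM with LPS and 4.49 ± 1.05 CPM with saline and Kcnj11 at 41.8 ± 11.9 CPM with LPS and 44.3 ± 3.07 CPM with saline.

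The 4 members without membrane domains did not pass the threshold, where 41.2% of all genes tested did. Abce1, needed to split ribosomes after termination, had 78.3, 88.6, 84.9 and 89.8 CPM with LPS and 78.9, 94.9, 86.6 and 85.6 CPM with saline (log2 change -0.02, 95% confidence interval -0.18 to 0.15). Abcf1, which acts with initiation factor eIF2, had 106, 89.8, 85.9 and 90.2 CPM with LPS and 105, 103, 111 and 97.3 CPM with saline (-0.16, adjusted p = 0.127), and passed without 2L (-0.23, adjusted p = 0.0142). Abcf2 had 109, 104, 104 and 122 CPM with LPS and 103, 94.5, 103 and 102 CPM with saline. Its groups did not overlap, and the difference did not pass the test (0.13, 95% confidence interval -0.03 to 0.28, adjusted p = 0.165). Abcf3 had 73.7, 68.2, 61.2 and 67.4 CPM with LPS and 69.1, 74.8, 71.6 and 66.1 CPM with saline (-0.06, adjusted p = 0.563). Intervals of these 4 genes exclude changes beyond -0.33 and 0.28 on the log2 scale.

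Among the 11 members that did not pass the filter in prefrontal cortex, Abcg3 had 8 counts over the LPS libraries and 64 over the saline libraries. In CPM it stood at 0.0479, 0.117, 0.00 and 0.0256 with LPS and at 0.256, 0.619, 0.465 and 0.214 with saline, without overlap. Without a filter its log2 change was -2.93 (edgeR adjusted p = 0.0026). The others were Abca12, Abca14, Abca15, Abca16, Abcb5, Abcb6, Abcb11, Abcc2, Abcg5 and Abcg8, each with at most 31 counts over a group. Of 3 ABC genes outside the symbol rule, 2 rose and 0 fell, where 21.5% and 19.7% of all genes tested did. Tap1, the peptide transporter gene of class I antigen presentation, rose to 27.9 ± 5.33 CPM with LPS, against 2.93 ± 0.502 CPM with saline (log2 change 3.25, adjusted p = 3.55e-07), and its partner Tap2 rose to 26.4 ± 2.96 CPM, against 11.1 ± 0.648 CPM with saline (1.26). Cftr, the chloride channel gene, did not pass the threshold (-0.34, adjusted p = 0.533). Of 12 tested genes for nuclear regulators of exporters 1 rose and 0 fell, where 21.5% and 19.7% of all genes tested did. The gene that rose was Keap1, the repressor of the Nrf2 response, at 131 ± 8.86 CPM with LPS and 101 ± 4.11 CPM with saline (0.37, adjusted p = 0.00148). The next smallest p in that list belonged to Trp53 (0.25, adjusted p = 0.0923) and Pparg (-0.37, adjusted p = 0.215).

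In hippocampus no member passed the threshold 24 hours after nicotine. Of 41 members that passed the filter 0 were called, as were 0.0% of all 18873 genes tested with edgeR (0 genes with limma-voom and 15, or 0.103%, with DESeq2, none of them a member). At unadjusted p under 0.05 there were 3 members, among them Abcc9 and Abcb9, and 8.36% of all genes. Nicotine and saline overlapped in CPM for all 41 members, while 0.387% of all genes did not overlap. Abcb1a had a lowest, median and highest level of 18.9, 19.8 and 24.9 CPM with nicotine and 16.4, 19.1 and 21.1 CPM with saline, a log2 change of 0.15 (95% confidence interval -0.03 to 0.33, adjusted p = 0.643). Abcg2 had 13.1, 15.7 and 16.4 CPM with nicotine and 13.0, 15.2 and 16.3 CPM with saline (0.01, interval -0.15 to 0.17). The ranges of Abcg2 nearly coincided, and those of Abcb1a overlapped from 18.9 to 21.1 CPM.

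None of the following 5 members, taken from those with the smallest unadjusted p upward and downward, passed the threshold. Abcc9 had a lowest, median and highest level of 6.16, 7.89 and 8.45 CPM with nicotine and 5.00, 6.45 and 7.01 CPM with saline (log2 change 0.28, 95% confidence interval 0.05 to 0.51, edgeR adjusted p = 0.555). Abcb9 had 26.4, 32.2 and 38.0 CPM with nicotine and 21.8, 27.8 and 31.7 CPM with saline (0.20, adjusted p = 0.593). In both the nicotine group was shifted upward, and the groups overlapped from 6.16 to 7.01 CPM for Abcc9 and from 26.4 to 31.7 CPM for Abcb9. In the other direction Abcb10 had 19.0, 23.8 and 26.0 CPM with nicotine and 24.4, 25.5 and 26.0 CPM with saline (-0.11, adjusted p = 0.643). Abcd3 had 61.1, 63.4 and 69.5 CPM with nicotine and 65.9, 67.4 and 68.3 CPM with saline (-0.06, adjusted p = 0.714), and Abcg3 had 0.120, 0.223 and 0.307 CPM with nicotine and 0.182, 0.271 and 0.340 CPM with saline (-0.27, adjusted p = 0.778). The members that changed most in prefrontal cortex with LPS showed intervals around 0 here, among them Abca8a (0.12, SE 0.11), Abca1 (0.06, SE 0.06) and Abcb1b (-0.04, SE 0.09).

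Abca4 varied more between hippocampal libraries than between treatments. It stood at 5.46 ± 5.65 CPM with nicotine and 7.53 ± 10.2 CPM with saline (SD, n = 6 each). Ttr, the transthyretin gene and a defining marker of choroid plexus, the epithelium that makes cerebrospinal fluid, exceeded 1000 CPM in 2 nicotine libraries (10N and 11N) and 2 saline libraries (2N and 5N). In these 4 libraries Abca4 stood at 8.96 to 27.3 CPM and Ttr at 1123 to 3680 CPM, and in the other 8 Abca4 stood at 1.35 to 3.17 CPM and Ttr at 15.2 to 220 CPM. The 6 libraries highest in Abca4 were also the 6 highest in Ttr, in the same order. In prefrontal cortex Ttr stood at 0.207 to 1.48 CPM with LPS and 0.617 to 1.08 CPM with saline, so the values of Abca4 there, 3.44 to 4.95 CPM with LPS and 2.10 to 3.51 CPM with saline, were measured at near 0 of this marker.

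**Figure D5:**
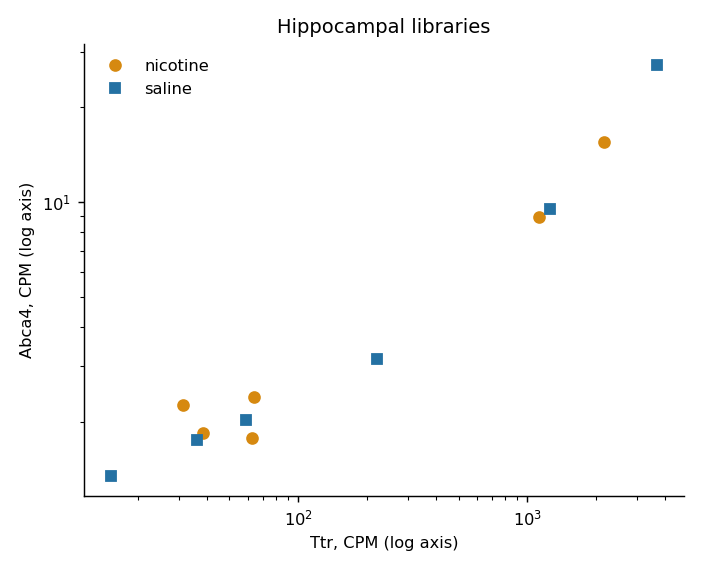
CPM of Abca4 against CPM of Ttr, both on log axes, in the 12 hippocampal libraries (circles, nicotine, n = 6; squares, saline, n = 6). The 4 libraries above 1000 CPM of Ttr hold 8.96 to 27.3 CPM of Abca4 and include 2 of each treatment.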

How the data were processed

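The deposited values are raw counts of reads in genes, not normalized, in a prefrontal cortex table and a hippocampus table. fastp, STAR, featureCounts, DESeq2 and build mm10 are named without versions or roles, per the submitters' processing notes. Libraries were poly(A)-selected from TRIzol RNA, per the labels' protocols. How strand was handled, and which annotation was counted, is not given in the sources used here, so reads in exons shared with another gene or its antisense partner could be lost or misplaced. Of the exon bases of Abcb6, 55.2% lie in an exon of another gene on the same strand, and on the other strand the largest shares are 10.3% in Abcb10, 10.1% in Abcb1a and 9.75% in Abca3, against 1.79% in Abcb1b and 3.25% in Abca8b. Genes were matched by symbol in prefrontal cortex, where 120 symbols were repeated, and 51884 of 57180 Ensembl identifiers were matched to GENCODE vM21 in hippocampus. Gene coordinates and exon lengths come from the same annotation.

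The tables were fitted separately in R 4.3.3 with edgeR 4.0.16 (TMM factors, filterByExpr, quasi-likelihood F-test, Benjamini-Hochberg adjustment over all genes tested, threshold 0.05). Over all genes tested, the median half-width of the 95% interval was 0.29 on the log2 scale for prefrontal cortex and 0.22 for hippocampus. Levels are counts scaled to a common library size with the TMM factors (CPM), divided by exon length where levels of different genes are compared. Alternatives were DESeq2 1.42.0, limma-voom (limma 3.58.1), RLE factors, no filter, leaving out each library, a replicate block, the title grouping, the 4 libraries with agreeing labels, marker covariates and leaving out libraries above 1000 CPM of Ttr. The fits were also run on simulated counts with 200 changed genes. In prefrontal cortex 7313 genes were called, so that simulation cannot show how the fits behave under so broad a change. No result above rests on it. No 2 libraries of a group agreed within sampling noise, and p-values reflect only how libraries of a group varied, which may be technical in part.

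The members and gene lists were chosen with earlier results of these data known, and no gene list was given a test of its own. Values in every library are given for Abcb1a, Abcg2 and up to 4 members of each role with the smallest p in prefrontal cortex. For hippocampus the lowest, median and highest value are given for Abcb1a, Abcg2 and the 3 members with the smallest p in each direction. Library values of Abca8b and Abcg3 and ranges of other members were added after their values were seen. Of each context list up to 3 genes with the smallest p are named, and the liver X receptor genes and their partners were named after their values were seen. Of the members, 2 are not reported here, and the lists above are given without them, though the counts over all members include them.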

Additional observations from a re-analysis of the deposited data

Results flagged for a closer look

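Of 64 groups of values examined for a library that stands apart from the others, 3 were picked out by Dixon's test at its 95% limit, a rate close to the 1 in 20 that chance gives. Abca1 stood at 57.9 CPM in saline library 6L, where the next saline library had 29.8 CPM. Abcd2 stood at 66.9 CPM in LPS library 2L, with the next LPS library at 45.7 CPM. Abcf2 stood at 94.5 CPM in saline library 3L, below the next saline library at 102 CPM. Libraries 6L and 2L are among the 4 whose title contradicts the column name, and 3L is not. Without 6L the log2 change of Abca1 was 1.52 (edgeR adjusted p = 0.000308), and without 2L that of Abcd2 was 0.29 (edgeR adjusted p = 0.0251).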

How the results depend on the processing

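Grouping the prefrontal cortex libraries by title called 0 genes and 0 members in either direction, with a log2 change of -0.29 for Abcb1a. Among others, this grouping turned the sign of Abca4 (-0.23), Abca5 (-0.041), Abca8a (0.14), Abcb10 (0.12), Abcb1b (-0.15) and Abcb4 (-0.24). It also turned that of Abcc4 (0.14), Abcc5 (-0.0036), Abcc8 (-0.11), Abcd2 (-0.31), Abcd3 (0.020) and Abce1 (0.025). In the 4 libraries with agreeing labels 3 members rose, Abcg2 passed the threshold (-0.50) and Abcb4 was at -0.21. With the endothelial covariate 3 rose, Abcg4 passed (-0.39), and Abcb4 was at -0.080 and Abce1 at 0.12. The cause of these differences was not tested. Leaving out each library gave 4 to 7 members higher and 8 to 14 lower, -1.58 to -1.09 for Abcb1a and -0.35 to -0.18 for Abcg2. Uncalled members near 0 turned sign. Abcb4 ranged upward from -0.027, and was below 0 without 2L, 4L or 8L. Abce1 ran from -0.062 to 0.021, above 0 without 2L or 3L, and Abcc9 from -0.12 to 0.085, above 0 without 5L, 7L or 8L and at 0.0089 with limma-voom.

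In hippocampus DESeq2 called 15 genes, and 1 was called without the libraries above 1000 CPM of Ttr. Leaving out each library called 0 to 1 genes and 0 members, with -0.027 to 0.054 for Abcg2, below 0 without saline replicate 1 or nicotine replicate 2, 5 or 6, and 0.09 to 0.18 for Abcb1a.

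Replicate numbers of the titles were not taken to pair the libraries, since the correlation of same-numbered deviations from the group means was -0.20 to -0.04 in prefrontal cortex and -0.19 to 0.55 in hippocampus, and did not exceed 0.1 in every pair. With the replicate block 4 members rose in place of 8, 13 of the 18 calls held, and 0 genes were called in hippocampus. Members below the filter had few or 0 counts.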
